A study of Mus musculus with 12 samples.

Results

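Vascular calcification and osteochondrogenic genes were examined in cultured mouse aortic smooth muscle cells at 2 glucose levels. The set was chosen by gene symbol and held 9 genes. Of these, 6 were matched to a probe set carrying exactly that symbol (Sox9, Msx2, Bmp2, Alpl, Mgp and Tnfrsf11b), among 22180 genes in all, and Runx2, Spp1 and Enpp1 were not analysed here. Where a gene had several probe sets, the one with the highest mean over all arrays was used, which applied to Alpl alone.

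Primary aortic smooth muscle cells came from the inbred mouse strain C57BL/6J and were used at passage 3 to 4; the medium, DMEM, held 10% fetal calf serum. One group of 6 arrays came from cells at 0.3 g/l glucose (1.7 mM) and the other group of 6 from cells at 4.5 g/l (25 mM). The labels differ on the duration, with 14 days in the series text and 1 week in the sample labels, and an osmotic control was not analysed here. They do not say whether the replicates came from separate cultures or animals, so every p-value refers to the variation among these arrays, part or all of which may be technical. All levels are log2 values from a whole-transcript gene array after robust multi-array averaging (RMA), and a difference is always the mean at 4.5 g/l minus the mean at 0.3 g/l on that log2 scale. Arrays carry no read depth, so their number limits the precision.

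Calcification of the arterial wall is a regulated process in which smooth muscle cells can take on features of bone and cartilage cells. Transcription factors such as Runx2, Msx2 and Sox9, driven in part by bone morphogenetic proteins, turn on matrix genes of bone and cartilage, while alkaline phosphatase removes pyrophosphate, an inhibitor of mineral growth that Enpp1 produces. Matrix Gla protein (Mgp) and osteoprotegerin (Tnfrsf11b) hold the process back, and mice that lack either gene develop arterial calcification.

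Before the results, the state of the arrays has to be described. Replicate 4 of the 0.3 g/l group stood apart from its group: over all probe sets it correlated at most at 0.982 with another 0.3 g/l array, but at up to 0.985 with a 4.5 g/l array. Among the 4.5 g/l arrays, replicates 4 to 6 differed from replicates 1 to 3 in many of the genes below. Smooth muscle markers were present on every array, with a mean of the 7 markers of 9.37 to 10.63 at 0.3 g/l and 11.09 to 11.30 at 4.5 g/l. Of the 7, 6 rose (limma adjusted p under 0.05), beside 7.01% of all genes. Endothelial markers were also present. Their mean over 10 genes was 7.94 to 8.01 in the 0.3 g/l arrays other than replicate 4 and 8.01 to 8.07 in replicates 1 to 3 of the 4.5 g/l group. It was lower, 7.29 to 7.33, in replicates 4 to 6 of that group and 7.44 in 0.3 g/l replicate 4. Of the endothelial markers 1 of 10 was called lower, beside 8.52% of all genes, with 3 of 10 lower at an unadjusted p under 0.05. The share of all genes at that unadjusted cut is not given, here or for the counts below, so these have no background. Without 0.3 g/l replicate 4, 3 of 10 were called lower, beside 13.6% of all genes. Within replicates 4 to 6 without that array 8 of 10 were (median difference -0.69), where 15.5% of all genes passed in either direction. Of the macrophage and leukocyte markers 0 of 10 were called by limma, by the rank-sum test or at an unadjusted p under 0.05 (means of 4.86 to 5.01 and 4.80 to 5.09). The mean of 6 fibroblast markers was 5.78 to 6.00 at 0.3 g/l, with replicate 4 at 5.79. At 4.5 g/l it was 5.89 to 5.96 in replicates 1 to 3 and 5.45 to 5.65 in replicates 4 to 6. Of these markers 1 was called lower and 0 higher, beside 8.52% and 7.01% of all genes. Within replicates 4 to 6 without 0.3 g/l replicate 4, 3 were lower and 1 higher. In a bulk culture, fewer cells of a type and less RNA per cell cannot be told apart.

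The 2 inhibitors of calcification moved in opposite directions at high glucose, and the 4 osteochondrogenic genes did not pass the test. Mgp rose 1.36-fold and Tnfrsf11b fell 1.26-fold. Thus 2 of 6 genes passed an adjusted p of 0.05 in limma, beside 15.5% of all genes tested, with 1 higher (7.01% of all genes) and 1 lower (8.52%). Over all genes the median log2 difference was -0.01.

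**Figure D1:**
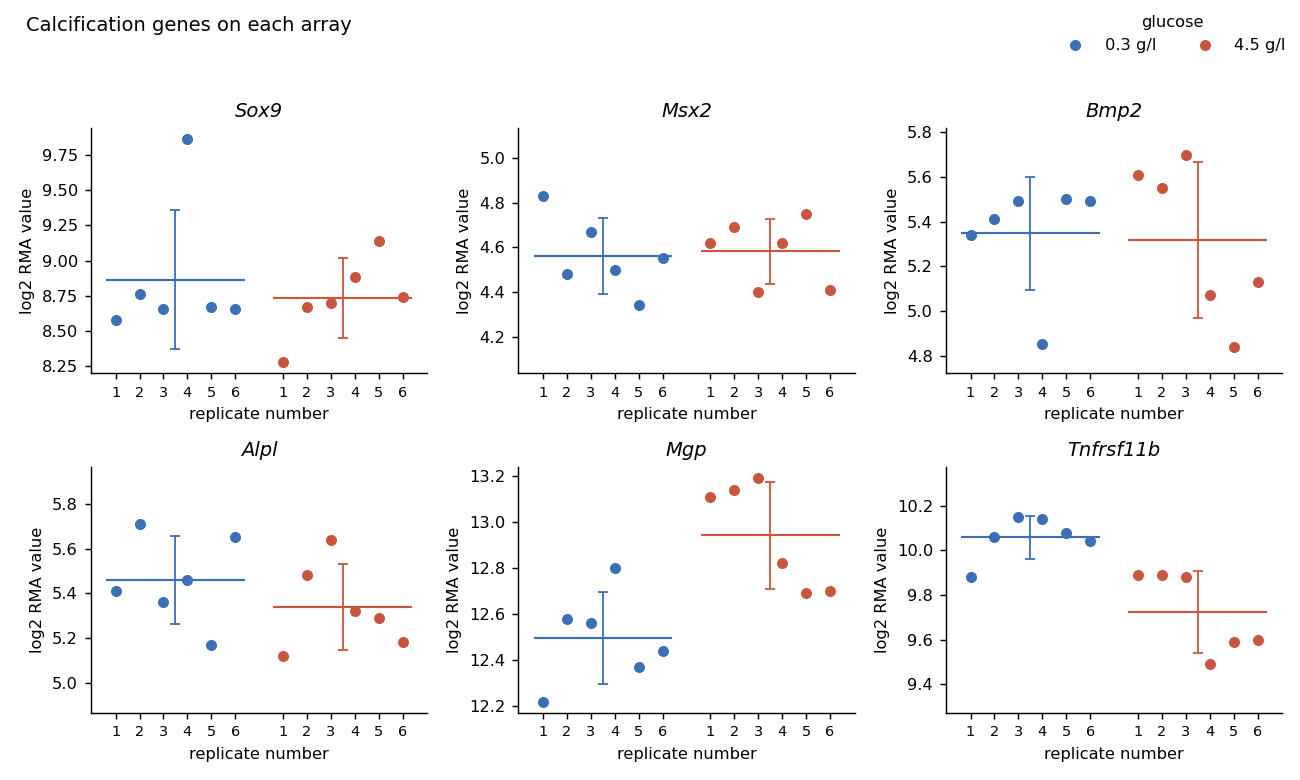
Log2 RMA value of the 6 measured calcification genes on each of the 12 arrays, by replicate number within the 0.3 g/l (blue) and 4.5 g/l (red) groups; each panel has its own axis, horizontal lines are group means and bars are ± SD (n = 6). Mgp lay higher and Tnfrsf11b lower at 4.5 g/l with a slight overlap, and 0.3 g/l replicate 4 stood apart for Sox9 (9.86) and Bmp2 (4.85).

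Mgp encodes matrix Gla protein, a small vitamin K-dependent protein that keeps calcium phosphate from crystallising in arteries and cartilage. On probe set 17472192 its values at 0.3 g/l ran from 12.22 through a median of 12.50 to 12.80, and at 4.5 g/l from 12.69 through 12.97 to 13.19. The groups overlapped only because 0.3 g/l replicate 4, the highest of its group, lay above 4.5 g/l replicates 5 and 6; the other 0.3 g/l arrays reached 12.58 at most. The difference was 0.45 ± 0.11 (SE), from 12.50 ± 0.20 to 12.94 ± 0.23 (SD, n = 6), with a limma adjusted p of 0.0167. With 0.3 g/l replicate 4 left out, the difference was 0.51 (limma adjusted p = 0.00393; 23.9% of all genes passed). The size depended on the 4.5 g/l arrays: replicates 1 to 3 spanned 13.11 to 13.19, whereas replicates 4 to 6 spanned 12.69 to 12.82. Within replicates 1 to 3, Mgp differed by 0.69 (limma adjusted p = 0.00698; 13.1% of all genes passed there). Of the 10 endothelial markers, 1 was higher and 1 lower there, and of the 6 fibroblast markers 2 were higher and 1 lower. The part of endothelial cells or fibroblasts in the Mgp values was not tested. Within replicates 4 to 6 it differed by 0.33 once 0.3 g/l replicate 4 was left out (limma adjusted p = 0.0481) and by 0.20 with it (limma adjusted p = 0.488; 0.135% of all genes passed). In an exact rank-sum test over all 12 arrays, Mgp did not pass (adjusted p = 0.0724; 8.99% of all genes passed).

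Tnfrsf11b encodes osteoprotegerin, a soluble decoy receptor that captures RANK ligand and so restrains osteoclast formation. Its values on probe set 17317046 ran from 9.88 through 10.07 to 10.15 at 0.3 g/l and from 9.49 through 9.74 to 9.89 at 4.5 g/l. Here 0.3 g/l replicate 4 lay with its own group at 10.14, and the overlap came from 0.3 g/l replicate 1 at 9.88. The fall was from 10.06 ± 0.10 to 9.72 ± 0.18 (SD, n = 6), a difference of -0.33 ± 0.09 (SE; limma adjusted p = 0.0166). The 4.5 g/l arrays again formed distinct ranges: replicates 1 to 3 spanned 9.88 to 9.89, and replicates 4 to 6 spanned 9.49 to 9.60. The difference was -0.14 within replicates 1 to 3 (limma adjusted p = 0.359) and -0.50 within replicates 4 to 6 without 0.3 g/l replicate 4 (limma adjusted p = 0.0110; 15.5% of all genes passed). It was -0.53 with that array, where the limma adjusted p was 0.0794. The lowest Tnfrsf11b values thus came from 4.5 g/l replicates 4 to 6, while replicates 1 to 3 lay below all 0.3 g/l arrays but replicate 1. Replicates 4 to 6 are also the 4.5 g/l arrays with the lower endothelial and fibroblast marker means. Without 0.3 g/l replicate 4, 8 of the 10 endothelial markers were lower within replicates 4 to 6. That 0.3 g/l array had an endothelial marker mean of 7.44 and a Tnfrsf11b value of 10.14. The part of these marker shifts in the fall of Tnfrsf11b was not tested. The exact rank-sum test gave an adjusted p of 0.0964.

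Sox9 is the transcription factor that directs cartilage formation. Its level ran from 8.58 through 8.67 to 9.86 at 0.3 g/l and from 8.28 through 8.72 to 9.14 at 4.5 g/l. The highest value belonged to 0.3 g/l replicate 4, while the other 5 arrays of that group lay between 8.58 and 8.76, inside the range of the 4.5 g/l group. The difference was -0.13 ± 0.20 (SE; 95% interval -0.56 to 0.30; limma adjusted p = 0.754), and 0.07 without that array (limma adjusted p = 0.751). Over all arrays, the sign of the Sox9 difference therefore rested on 0.3 g/l replicate 4.

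Bmp2, a bone morphogenetic protein that induces bone and cartilage, had values of 4.85, 5.45 and 5.50 (lowest, median, highest) at 0.3 g/l and of 4.84, 5.34 and 5.70 at 4.5 g/l. The group means did not differ beyond the spread (-0.03 ± 0.16, SE; 95% interval -0.37 to 0.31; limma adjusted p = 0.936). Both means, 5.35 and 5.32, lay below 5.53, the median of the mean level over all genes. The spread had a clear order, however. Replicates 1 to 3 of the 4.5 g/l group spanned 5.55 to 5.70, above every 0.3 g/l array. Replicates 4 to 6 of that group spanned 4.84 to 5.13, with 0.3 g/l replicate 4 among them at 4.85. These last 4 arrays are the ones with endothelial marker means of 7.29 to 7.44. Fibroblast marker means were 5.45 to 5.65 in those at 4.5 g/l and 5.79 in 0.3 g/l replicate 4. The part of endothelial cells or fibroblasts in the Bmp2 values was not tested. Within replicates 1 to 3 the difference was 0.21 (limma adjusted p = 0.140), and within replicates 4 to 6 without 0.3 g/l replicate 4 it was -0.48 (limma adjusted p = 0.0336), in the set of arrays where 8 of 10 endothelial markers were lower.

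Msx2, a homeobox factor that BMP signalling induces in calcifying arteries, lay at 4.34, 4.53 and 4.83 (lowest, median, highest) at 0.3 g/l and at 4.40, 4.62 and 4.75 at 4.5 g/l. These values are close to 4.20, the lower quartile (25%) of the mean level over all genes, so a change could be hard to see. The difference was 0.02 ± 0.09 (SE; 95% interval -0.17 to 0.21; limma adjusted p = 0.926), and the groups overlapped almost fully.

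Alpl encodes tissue-nonspecific alkaline phosphatase, which splits pyrophosphate and is a standard marker of mineralising cells. Probe set 17548317 gave 5.17, 5.44 and 5.71 (lowest, median, highest) at 0.3 g/l and 5.12, 5.30 and 5.64 at 4.5 g/l, a difference of -0.12 ± 0.11 (SE; 95% interval -0.35 to 0.11; limma adjusted p = 0.527). The second Alpl probe set, 17431720, differed by -0.08 ± 0.07 (SE), with values of 5.07 to 5.39 and 4.95 to 5.31. Neither probe set separated the groups, and on probe set 17548317 0.3 g/l replicate 4 lay inside the range of its group, at 5.46. Both group means on that probe set, 5.46 and 5.34, lay below 5.53, the median of the mean level over all genes. A change of Alpl could thus be hard to see.

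**Figure D2:**
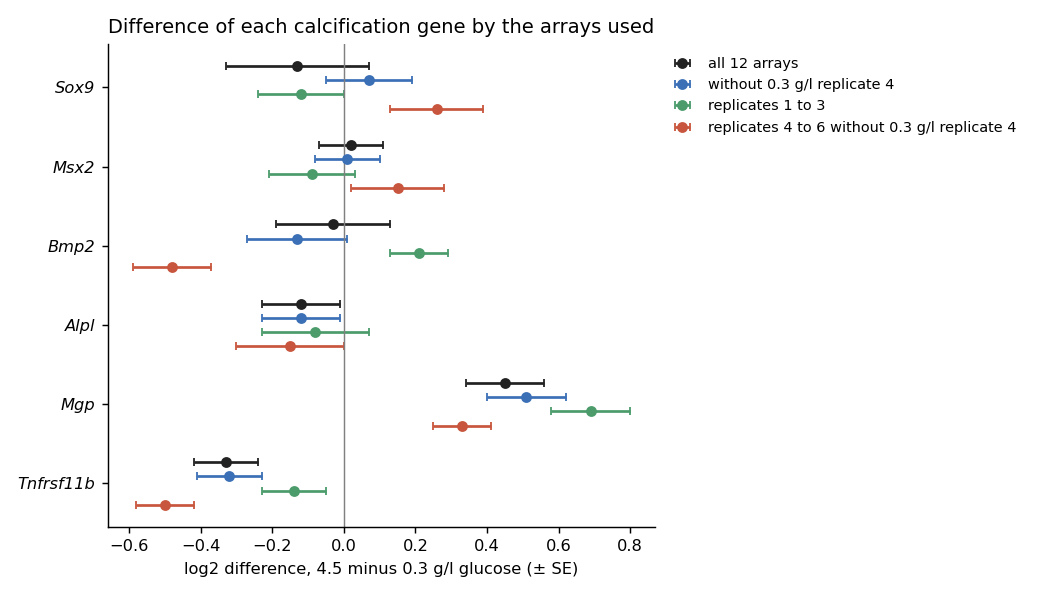
Log2 difference, 4.5 minus 0.3 g/l glucose, with its SE for the 6 measured genes, from all 12 arrays, without 0.3 g/l replicate 4, within replicates 1 to 3 and within replicates 4 to 6 without 0.3 g/l replicate 4. Mgp was above 0 and Tnfrsf11b below 0 in all of these sets of arrays, while Sox9 (-0.13 to 0.26) and Bmp2 (-0.48 to 0.21) changed sign between them.

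The genes whose profile over the 12 arrays was most like that of each changed gene were found by the root-mean-square difference of log2 values after each gene's own mean was removed, among 17171 named genes. For Mgp these were Timp1, an inhibitor of matrix metalloproteinases (0.0721 log2 units; difference 0.36 ± 0.10, SE), and Mfap5, a protein of elastic microfibrils (0.0726; difference 0.48 ± 0.13, SE). For Tnfrsf11b they were Dctd, deoxycytidylate deaminase (0.0693; difference -0.27 ± 0.08, SE), and Ptprq, a receptor-type phosphatase (0.0706; difference -0.39 ± 0.09, SE). A small value here means a like size and pattern of change, including the step between 4.5 g/l replicates 1 to 3 and 4 to 6.

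Other genes of the same processes were taken from 9 lists. Of 135 measured list genes outside the set, 15 rose and 14 fell at 4.5 g/l, beside the 7.01% and 8.52% of all genes, and 106 did not pass; their median log2 difference was 0.01. In 13 of them the groups did not overlap, beside 6.4% of all genes. These counts moved with the arrays: without 0.3 g/l replicate 4, 26 rose and 18 fell (10.3% and 13.6% of all genes). Leaving out any 1 of the other 11 arrays lowered both counts, to 8 to 12 higher and 9 to 13 lower. The count of higher genes fell most without 0.3 g/l replicate 1 (8), 3 (9), 5 (8) or 6 (8) or 4.5 g/l replicate 4 (9), and that of lower genes without 0.3 g/l replicate 3 (9) or 6 (9). Of the 26 called list genes named below, 17 passed whichever array was left out, and the other 9 are given with the number of these 12 fits in which they passed.

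**Figure D3:**
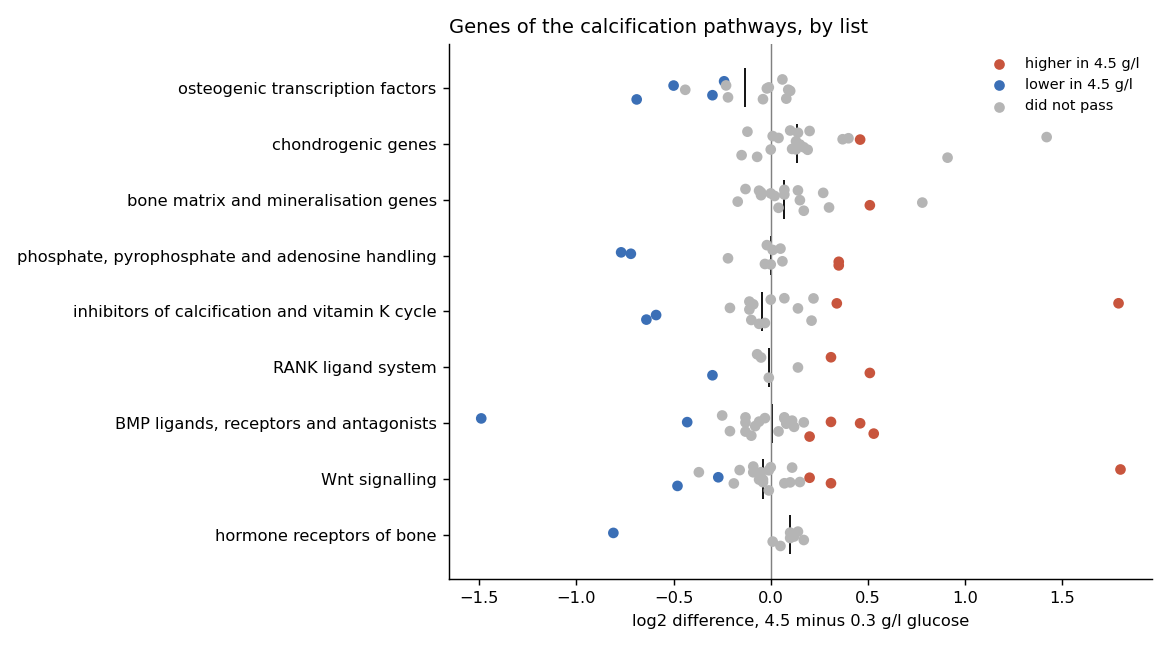
Log2 difference, 4.5 minus 0.3 g/l glucose, of each measured gene of the 9 lists; red and blue points passed an adjusted p of 0.05 in limma, grey points did not, and black lines are list medians. Sost, Wnt16 and Bmpr1b had the largest differences among the called genes (1.79, 1.80 and -1.49).

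Of the cartilage genes 1 of 20 rose and 0 fell in limma, beside 7.01% and 8.52% of all genes, with a median log2 difference of 0.14. The counts were 3 and 0 at an unadjusted p under 0.05, for which no share of all genes is given. By the adjusted rank-sum test they were 0 and 0, beside 8.99% of all genes in either direction. Col10a1, the collagen of hypertrophic cartilage, rose 1.37-fold (6.99 ± 0.27 to 7.45 ± 0.16, SD, n = 6; limma adjusted p = 0.0183). Known targets of Sox9 in cartilage, the type II collagen gene Col2a1 and the aggrecan gene Acan, did not pass in the limma fit of 12 arrays without a block. With the replicate number as a block, Acan passed (limma adjusted p = 0.0384) and Col2a1 did not (0.0800). The same held with the ranges 1 to 3 and 4 to 6 as a block (limma adjusted p = 0.0361 and 0.0922). For Col2a1 the 0.3 g/l arrays other than replicate 4 spanned 7.79 to 8.50, and 0.3 g/l replicate 4 had 10.67. At 4.5 g/l, replicates 1 to 3 spanned 8.92 to 9.10 and replicates 4 to 6 spanned 9.88 to 10.21. Acan was arranged alike, with 7.34 to 8.04 and 10.57 at 0.3 g/l, then 8.49 to 8.93 and 10.41 to 10.54 at 4.5 g/l. A single 0.3 g/l array thus had the highest value of all 12 for Sox9, Col2a1 and Acan. The differences over all arrays were 0.91 ± 0.42 for Col2a1 and 1.42 ± 0.54 for Acan (SE; limma adjusted p = 0.175 and 0.0983). Without that array 4 of the 20 cartilage genes rose, beside 10.3% of all genes. Col2a1 was then 2.50-fold and Acan 3.74-fold higher at 4.5 g/l (limma adjusted p = 0.00146 and 0.00302). Within replicates 1 to 3 alone they were 1.74-fold and 1.93-fold higher (limma adjusted p = 0.0233 and 0.0190), while Sox9 differed by -0.12 there (limma adjusted p = 0.619). Within replicates 4 to 6 without 0.3 g/l replicate 4 they were 3.58-fold and 7.39-fold higher (limma adjusted p = 0.000671 and 0.000109). Sox9 differed by 0.26 in that set (limma adjusted p = 0.258). There 6 of the 20 cartilage genes rose, where 15.5% of all genes passed in either direction. The mean of 6 chondrocyte markers was 5.94 to 6.25 in the 0.3 g/l arrays other than replicate 4, and 7.16 in that array. At 4.5 g/l, replicates 1 to 3 had 6.46 to 6.54, whereas replicates 4 to 6 had 6.92 to 7.00. This mean is not separate from the genes above, as Col2a1, Acan and Col10a1 are among the 6. The other markers, Col9a1, Matn1 and Matn3, differed by 0.10, -0.07 and 0.04 over all arrays and did not pass. Of the 6, 1 was called higher, beside 7.01% of all genes.

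**Figure D4:**
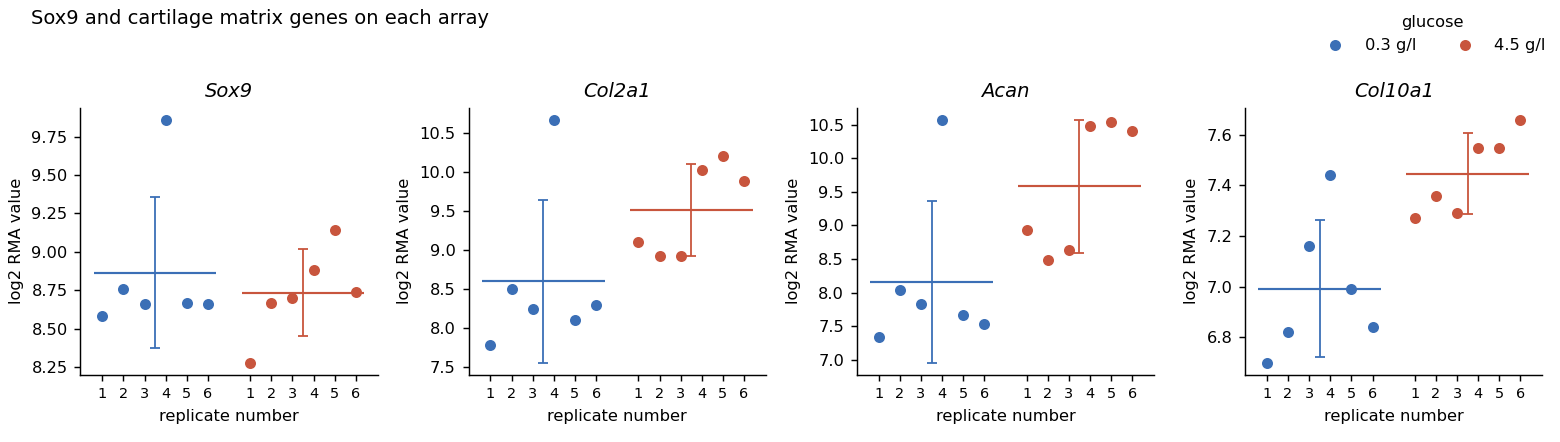
Log2 RMA value of Sox9 and 3 cartilage matrix genes on each of the 12 arrays, by replicate number within the 0.3 g/l (blue) and 4.5 g/l (red) groups; each panel has its own axis, with group means and ± SD (n = 6). In 0.3 g/l replicate 4, Sox9 (9.86), Col2a1 (10.67) and Acan (10.57) were the highest of all arrays, and Col2a1 and Acan lay higher in 4.5 g/l replicates 4 to 6 than in replicates 1 to 3.

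Of 17 bone matrix and mineralisation genes 1 rose, beside 7.01% of all genes. It was the annexin gene Anxa6, whose protein is found in matrix vesicles (1.43-fold, limma adjusted p = 0.00109, groups not overlapping). The defining osteoblast genes were dim in both groups: the osteoblast factor Sp7 had means of 4.67 and 4.76, osteocalcin Bglap 4.58 and 4.85, and bone sialoprotein Ibsp 3.82 and 3.76. Their differences were 0.10 ± 0.10, 0.27 ± 0.14 and -0.06 ± 0.14 (SE), none past the threshold. The collagen I chain gene Col1a1 differed by 0.30 ± 0.14 (SE; limma adjusted p = 0.190) and 0.44 when 0.3 g/l replicate 4 was left out, which passed (limma adjusted p = 0.00490). By the adjusted rank-sum test 3 of 14 osteogenic transcription factors fell, beside 965 of all 22180 genes. In limma 4 fell and 0 rose, beside 8.52% and 7.01% of all genes, and the counts were the same at an unadjusted p under 0.05 (median -0.13). These were Atf4, which also serves the amino acid response (1.61-fold lower), Dlx5, a homeobox gene of osteoblast development (1.41-fold lower, 7.34 ± 0.06 to 6.84 ± 0.10, SD, n = 6; limma adjusted p = 0.000193), Cbfb, the partner subunit of the RUNX proteins (1.23-fold lower), and Runx1 (1.18-fold lower, limma adjusted p = 0.0406, passing in 4 of 12 fits). The groups did not overlap for Atf4, Dlx5 and Cbfb.

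Promoter windows from RefSeq (GRCm38.p6; 300 bases, 250 before and 50 after an annotated start site) were listed for 2 of the 6 measured genes, Alpl with 2 windows and Msx2 with 1. The Alpl windows are shown because they belong to the separate start sites of one measured enzyme gene, and that of Col10a1 because it was the cartilage gene past the threshold. Both strands were searched for the core bound by RUNX proteins, TGTGGT, and for the element of many core promoters, TATAAA. The search also covered the E-box that basic helix-loop-helix factors bind, CACGTG, the site of the activator protein AP-1, TGANTCA, and the core bound by SOX factors, AACAAT. The last motifs were one bound by SMAD proteins under BMP signalling, GGCGCC, and the CArG box of serum response factor; each window shown held 1 match, so no matches overlap. Matches are in capitals, in the direction of transcription. The window of Alpl at chr4:137796335-137796634 (minus strand) held GGCGCC, with its first base at -66 from the start site; 11.9% of all 32851 windows hold that motif. The window of Alpl at chr4:137766426-137766725 (minus strand) held TATAAA on the reverse strand at -192, and that of Col10a1 at chr10:34389731-34390030 (plus strand) held it on the forward strand at -32; 13.6% of windows hold it. The other motifs were found in 16.8% (RUNX), 7.15% (E-box), 7.81% (AP-1), 10.7% (SOX) and 1.63% (CArG box) of windows, and none of these letters occurred in the windows shown or in those of Msx2, Acan, Sost and Wnt16.
Alpl, chr4:137796335-137796634: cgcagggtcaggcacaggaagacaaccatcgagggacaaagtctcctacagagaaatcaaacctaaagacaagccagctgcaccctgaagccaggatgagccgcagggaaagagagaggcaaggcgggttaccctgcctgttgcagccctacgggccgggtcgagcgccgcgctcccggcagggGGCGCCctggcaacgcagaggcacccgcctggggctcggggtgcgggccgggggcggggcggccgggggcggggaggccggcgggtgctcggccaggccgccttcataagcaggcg
Alpl, chr4:137766426-137766725: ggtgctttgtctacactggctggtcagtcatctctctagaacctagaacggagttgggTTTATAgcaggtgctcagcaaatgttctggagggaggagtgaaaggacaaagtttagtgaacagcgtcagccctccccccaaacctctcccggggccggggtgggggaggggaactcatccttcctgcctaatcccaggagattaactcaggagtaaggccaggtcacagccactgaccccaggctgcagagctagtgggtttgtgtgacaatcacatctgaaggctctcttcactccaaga
Col10a1, chr10:34389731-34390030: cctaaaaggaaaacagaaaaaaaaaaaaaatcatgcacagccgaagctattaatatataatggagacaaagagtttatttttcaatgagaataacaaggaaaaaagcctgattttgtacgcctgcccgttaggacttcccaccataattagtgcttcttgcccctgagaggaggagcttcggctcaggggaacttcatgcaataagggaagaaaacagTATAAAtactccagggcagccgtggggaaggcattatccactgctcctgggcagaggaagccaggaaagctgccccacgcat

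Phosphate and adenosine genes changed in both directions. Of 11 measured, 2 rose and 2 fell (median 0.00), beside 7.01% and 8.52% of all genes. Slc20a1, the sodium-phosphate cotransporter PiT-1 through which smooth muscle cells take up phosphate, ran from 7.92 to 9.21 at 0.3 g/l and from 7.91 to 8.47 at 4.5 g/l; the low value of the first group was replicate 4, and the other 5 arrays lay at 9.04 to 9.21, above all 4.5 g/l arrays. It fell 1.70-fold (difference -0.77 ± 0.20, SE; limma adjusted p = 0.0161) and 1.95-fold without that array (limma adjusted p = 1.93e-05). The relative Slc20a2 differed by -0.03 ± 0.05 (SE; limma adjusted p = 0.760). Nt5e, the ecto-nucleotidase CD73 that makes adenosine from AMP and whose loss in humans causes arterial calcification, fell 1.65-fold (limma adjusted p = 0.00404). It showed the same arrangement, with 0.3 g/l replicate 4 at 7.25, the rest of that group at 8.05 to 8.30 and the 4.5 g/l arrays at 7.13 to 7.37. Slc20a1 and Nt5e did not pass the exact rank-sum test (adjusted p = 0.172 and 0.133). Entpd1 (CD39), the enzyme upstream of Nt5e, rose 1.27-fold with no overlap, and the exporter gene Abcc1 rose 1.27-fold (passing in 5 of 12 fits). Abcc1 did not pass the exact rank-sum test either (adjusted p = 0.0964). Ank, the mouse symbol here for Ankh, which brings pyrophosphate out of the cell, differed by 0.06 ± 0.13 (SE) and Abcc6 by 0.01 ± 0.09 (SE).

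The RANK system that osteoprotegerin acts on was measured through 7 genes. Of these 2 rose and 1 fell, beside 7.01% and 8.52% of all genes. Tnfrsf11a, the receptor RANK, rose 1.42-fold with no overlap (4.87 ± 0.12 to 5.38 ± 0.22, SD, n = 6, limma adjusted p = 0.00329). Both of its means lay below 5.53, the median of the mean level over all genes. Tnfsf11, the RANK ligand, was dim, with means of 4.22 and 4.17, and differed by -0.05 ± 0.10 (SE). Lgr4, a receptor for R-spondins that can also bind RANK ligand, rose 1.24-fold, and the macrophage growth factor Csf1 fell 1.23-fold; neither overlapped between groups. Among 16 inhibitors of calcification and genes of the vitamin K cycle, 2 rose and 2 fell, beside the same shares of all genes. Sost, which encodes the Wnt antagonist sclerostin, rose 3.46-fold, from 4.87 through 5.57 to 6.65 at 0.3 g/l (lowest, median, highest) to 6.77 through 7.28 to 8.09 at 4.5 g/l, with no overlap (difference 1.79 ± 0.29, SE; limma adjusted p = 0.00113). Protein S, Pros1, rose 1.26-fold (passing in 5 of 12 fits). Fetub, a relative of fetuin-A, fell 1.55-fold (limma adjusted p = 0.0406) and the metalloproteinase inhibitor Timp3 1.5-fold. With 1 array left out, Fetub passed in only 2 of 12 fits (adjusted p up to 0.0921) and Timp3 in 4 of 12 (up to 0.0669). Gas6, a vitamin K-dependent growth factor, differed by 0.22 ± 0.19 (SE; limma adjusted p = 0.537), and 4.5 g/l replicates 1 to 3 spanned 10.56 to 10.71, replicates 4 to 6 only 9.57 to 9.70, and all 0.3 g/l arrays 9.86 to 10.00. Fetuin-A, Ahsg, differed by -0.09 ± 0.08 (SE).

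Among 22 BMP ligands, receptors and antagonists other than Bmp2, 4 rose and 2 fell (median 0.00), beside 7.01% and 8.52% of all genes. The type I receptor gene Bmpr1b fell 2.81-fold (6.75 ± 0.85 to 5.26 ± 0.16, SD, n = 6; limma adjusted p = 0.00484), with 0.3 g/l replicate 4 at 5.12, among the 4.5 g/l values of 4.99 to 5.43, and the rest of its group at 6.54 to 7.42. Without that array the fall was 3.53-fold. Gdf6, a BMP family ligand, fell 1.35-fold (passing in 8 of 12 fits). The secreted Fstl1 and the activin-binding Fst rose 1.44-fold and 1.37-fold (limma adjusted p = 0.00472 and 0.0353). Leaving out any array but 0.3 g/l replicate 4 ended the call of Fst, which passed in 1 of 12 fits (adjusted p up to 0.0831). Bmp4 differed by -0.13 ± 0.06, and the BMP antagonists Nog by -0.08 ± 0.12 and Grem1 by -0.25 ± 0.19 (SE); none of the 3 passed. In Wnt signalling 3 of 21 genes rose and 2 fell, beside the same shares of all genes. Wnt16, a ligand known for its effect on cortical bone mass, rose 3.49-fold (5.95 ± 0.76 to 7.76 ± 0.49, SD, n = 6; limma adjusted p = 0.00199), with 0.3 g/l replicate 4 at 7.45 and its group's other arrays at 5.46 to 5.98. The receptor genes Fzd2 and Lrp6 rose 1.24-fold and 1.15-fold (passing in 7 and 6 of 12 fits), and Wnt5a, a ligand of the non-canonical branch, fell 1.39-fold. In the list of 8 hormone receptors of bone 1 gene fell, beside 8.52% of all genes. It was Calcrl, the calcitonin receptor-like receptor (1.76-fold lower, limma adjusted p = 0.00767). Whether Calcrl serves a bone hormone in these cells was not tested. For Calcrl 0.3 g/l replicate 4, at 6.78, lay among the 4.5 g/l values of 6.54 to 7.10, and the rest of its group at 7.49 to 7.97. Bmpr1b, Wnt16 and Calcrl did not pass the exact rank-sum test (adjusted p = 0.172, 0.0724 and 0.133). Neither did Fstl1, Fst and Fzd2 (exact rank-sum adjusted p = 0.133, 0.213 and 0.0724). The vitamin D receptor Vdr differed by 0.10 ± 0.12 (SE, limma adjusted p = 0.676). With 0.3 g/l replicate 4 left out, Vdr differed by 0.23, which passed (limma adjusted p = 0.0108).

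**Figure D5:**
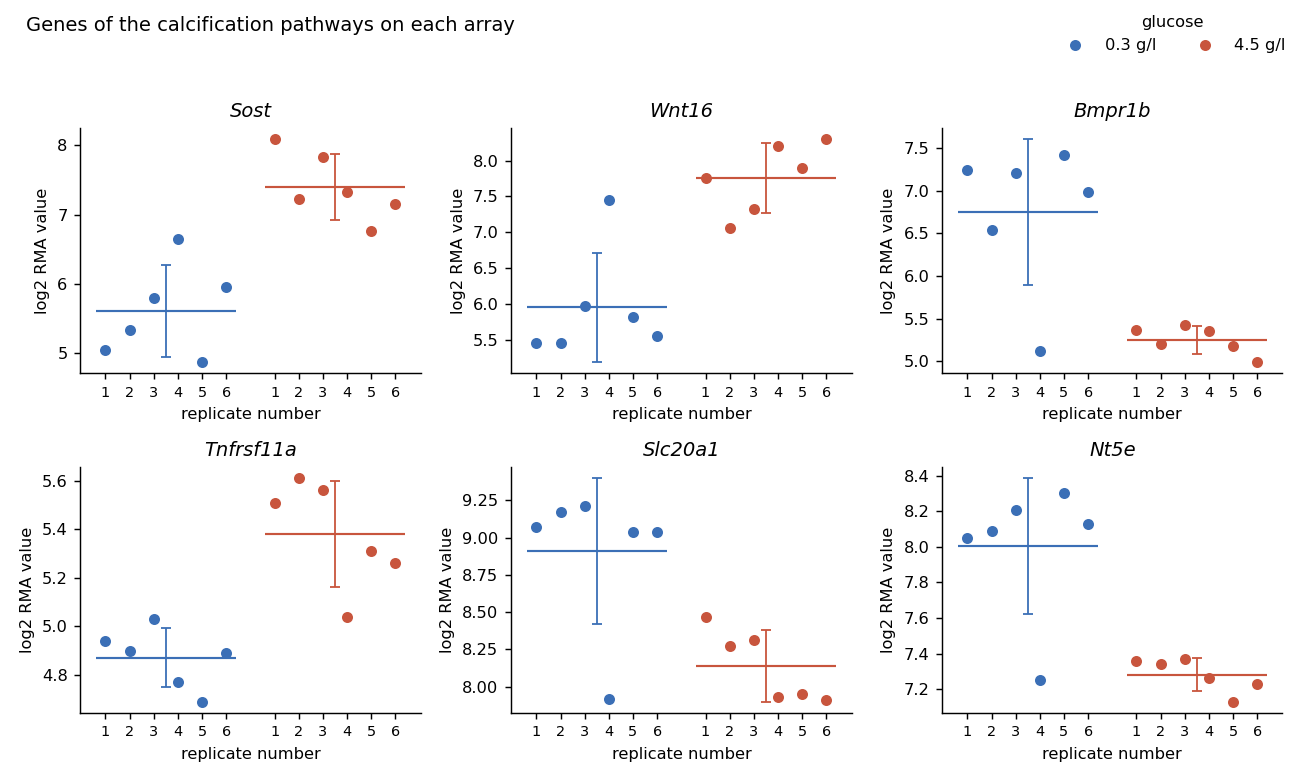
Log2 RMA value of 6 genes of the calcification pathways on each of the 12 arrays, by replicate number within the 0.3 g/l (blue) and 4.5 g/l (red) groups; each panel has its own axis, with group means and ± SD (n = 6). Sost and Tnfrsf11a were higher at 4.5 g/l with no overlap, and 0.3 g/l replicate 4 lay among the 4.5 g/l arrays for Wnt16 (7.45), Bmpr1b (5.12), Slc20a1 (7.92) and Nt5e (7.25).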

How the data were processed

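RNA of 12 samples was measured on an Affymetrix mouse gene array. The table that the authors deposited holds log2 values for 41345 probe sets (0.60 to 13.90, none missing) and was produced in Affymetrix Expression Console and RMA, per the submitters' processing notes; versions were not given in the sources used here. RMA quantile-normalizes the arrays and compresses differences of dim genes. Probe sets with 1 gene symbol in the platform annotation (23521) gave 22180 genes, each by its brightest probe set. No detection calls or scan dates were given.

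Groups were those of the sample labels. The test was that of limma 3.58.1 in R 4.3.3, two-sided, with moderated variances (lmFit, then eBayes), no block, and p-values adjusted by Benjamini-Hochberg across every gene tested (threshold 0.05). The fit was tested on simulated data. Members, lists and tests were chosen with earlier results of these data known. Genes named were the members, up to the 4 called genes with the smallest p of each list, 20 genes named always, and the 2 nearest profiles of each called member. Of the listed pathway genes, 135 of 145 were matched. Alternatives were other moderation, scaling, filter, probe set choice, weights and blocks, an exact rank-sum test and fewer arrays. Figures were drawn with matplotlib 3.10.9.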

Additional observations from a re-analysis of the deposited data

Results flagged for a closer look

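Among the 48 genes of the set and its lists that were followed, each group of 6 arrays was searched for a lowest or highest array far from the others (Dixon's test of the gap to the nearest array), which chance gives in about 1 of 20 groups. Of 96 groups, 15 held such an array, and in 14 it was 0.3 g/l replicate 4. That array was highest in its group for Sox9 (9.86), Acan (10.57), Col2a1 (10.67), Anxa6 (11.11), Fst (8.37), Fstl1 (11.64), Gdf6 (7.72), Vdr (6.56) and Wnt16 (7.45), and lowest for Bmp2 (4.85), Fetub (5.84), Nt5e (7.25), Slc20a1 (7.92) and Timp3 (11.49). The remaining case was Cbfb, at 7.98 in 4.5 g/l replicate 5, the lowest of its group. Gdf6 differed in direction from the other called genes here: it was called lower at 4.5 g/l, yet 0.3 g/l replicate 4 lay farther from the 4.5 g/l arrays than the rest of its group did.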

How the results depend on the processing

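Mgp stayed above 0 and Tnfrsf11b below 0 in all 25 alternatives (log2 differences of 0.20 to 0.69 and of -0.53 to -0.14), past the threshold in 23 and 22 of them; leaving out any 1 array kept both past it (0.39 to 0.51 and -0.37 to -0.29), so 1 gene of the set was higher and 1 lower each time. The exceptions were the exact rank-sum test (0 higher, 0 lower; 1 and 1 at an unadjusted p under 0.05), limma on replicates 4 to 6 alone (0 and 0; 0 and 1 unadjusted) and, for Tnfrsf11b, replicates 1 to 3 alone (0 lower); replicates 4 to 6 without 0.3 g/l replicate 4 gave 2 lower, Bmp2 with Tnfrsf11b. Sox9 (-0.21 to 0.26) and Msx2 (-0.09 to 0.15) changed sign without passing, and Bmp2 ranged from -0.48 to 0.21. Over all genes 1555 rose and 1889 fell. These counts were 2347 and 3072 with array weights, 1028 and 965 by rank-sum test, 21 and 9 within replicates 4 to 6, and 1202 to 2288 and 1303 to 3007 when each array was left out. For the lists, 15 rose and 14 fell. With array weights 24 rose, and by rank-sum test 7 and 7 changed. By limma within replicates 4 to 6 the list counts were 0 and 0. They were 13 and 23 there at an unadjusted p under 0.05, for which no share of all genes is given. The list counts were 8 to 26 and 9 to 18 when each array was left out. Replicate numbers were not taken to pair the arrays: deviations of same-numbered arrays correlated at -0.046 to 0.173, and 3 of 12 arrays correlated best with their own number. With the replicate number as a block 1419 genes rose and 1711 fell, and Mgp (adjusted p = 0.0258) and Tnfrsf11b (0.0412) still passed. Scaling moved the median difference of all genes to at most -0.051. The causes of these shifts were not tested. Without detection calls, no bound can be set for dim genes such as Msx2, Sp7 and Ibsp.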
